A study of Rattus norvegicus with 9 samples.

Results

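The 8 genes described here serve endolymph ion transport and the inner ear gap junctions, and were followed in vestibular epithelia of rats exposed to 3,3′-iminodipropionitrile (IDPN), a nitrile that is toxic to vestibular hair cells (HCs). They were taken by symbol from a table of 32883 genes. They comprise 4 genes that serve transport in the potassium-secreting dark cells (Slc12a2, Atp1b1, Atp1b2 and Bsnd). The others are 1 gene of the anion exchanger pendrin (Slc26a4) and 3 genes of connexins (Gjb2, Gjb6 and Gja1). These 8 genes are not restricted to dark cells, so their levels here are those of the whole tissue. All 8 were among the 15517 genes with enough counts to be tested. The samples were the cristae and utricles of male Long-Evans rats, with the 6 cristae and the 2 utricles of each animal pooled into 1 library. Rats of the IDPN-3wk group had 20 mM IDPN as their drinking water for 3 weeks, and rats of the IDPN-7wk group had the same concentration for 7 weeks. The Control group drank plain water, and this single group, with animals killed at either time, served both exposures. There were 3 libraries, each from 1 rat, in each of the 3 groups. The age of these rats is not given in the sources used here.

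The endolymph that bathes the apical side of HCs is rich in potassium, and in the vestibule it is the dark cells next to the sensory patches that secrete it. Dark cells take up potassium across the basolateral membrane through the sodium-potassium-chloride cotransporter NKCC1 and the Na,K-ATPase, return chloride through channels that need the subunit barttin, and release potassium at the apex through the KCNQ1/KCNE1 channel. Supporting cells and fibroblasts of the inner ear are joined by gap junctions made of connexins, which let ions and small molecules pass from cell to cell. Loss of several of these genes causes deafness or vestibular defects in people and mice.

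Levels are given as CPM, a library's counts for a gene per 1e6 of its total, on library sizes scaled by the TMM method, one value for each library, with the mean ± SD of 3 rats. Genes of different length were not compared by level. Fold changes, standard errors (SE) and adjusted p come from the quasi-likelihood test of edgeR over all tested genes, and a gene was counted as a differentially expressed gene (DEG) when its adjusted p was under 0.05 and its fold change above 1.5. Libraries held 31100118 to 46018385 counts. In 3 libraries (Control 3, IDPN-3wk 1 and IDPN-3wk 2) fewer genes were detected at equal depth, 15387 to 15498 against 16834 to 17312 in the other 6 libraries, and differences within each of these library sets are given where they bear on a result. Because the samples were whole tissue pieces, fewer cells of a type and less RNA per cell cannot be told apart. According to the paper the pieces were cleaned of adjacent tissue. How much dark cell, transitional or connective tissue stayed on each piece is not given in the sources used here.

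After 3 weeks, 1 of the 8 genes was a DEG, Bsnd, which was higher, where 1.65% of all tested genes were DEGs and 0.438% were DEGs that rose. After 7 weeks, 3 of the 8 were DEGs and all 3 were lower (Slc12a2, Atp1b1 and Gjb6), where 5.13% of all tested genes were DEGs and 3.13% were DEGs that fell. Between the IDPN groups, 1 of the 8 was a DEG, Gjb6, lower at 7 than at 3 weeks, where 0.483% of all tested genes were DEGs and 0.135% were lower at 7 weeks. The median log2 fold change of the 8 genes was -0.35 at 3 weeks and -0.27 at 7 weeks against Control, while that of all tested genes was -0.00047 and 0.0097. Atp1b2, Slc26a4, Gjb2 and Gja1 did not pass the test in any of the 3 comparisons.

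Other counts of the 8 genes can be read against those of all tested genes. After 3 weeks, 188 of all tested genes (1.21%) were DEGs that fell, and 0 of the 8, although 4 of the 8 were lower at an unadjusted p under 0.05 (5 of 8 in either direction, 15.8% of all tested genes). Without the fold change threshold 2 of the 8 passed (1.88% of all), and DESeq2 called 1 (4.78% of all). At 7 weeks 4 of the 8 had an unadjusted p under 0.05 (19.3% of all), 3 passed without the fold change threshold (6.09% of all), and DESeq2 called 4, with Bsnd (8.49% of all), while 2% of all tested genes and 0 of the 8 were DEGs that rose. Between the IDPN groups no gene of the 8 was a DEG that was higher at 7 weeks (0.348% of all), 4 had an unadjusted p under 0.05 (13.8% of all), 1 passed without the threshold (0.503% of all) and DESeq2 called 3 (3.4% of all). The libraries of the compared groups did not overlap for 4 of the 8 genes at 3 weeks (19.6% of all), 5 at 7 weeks (34.3% of all) and 4 between the IDPN groups (21% of all).

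**Figure D1:**
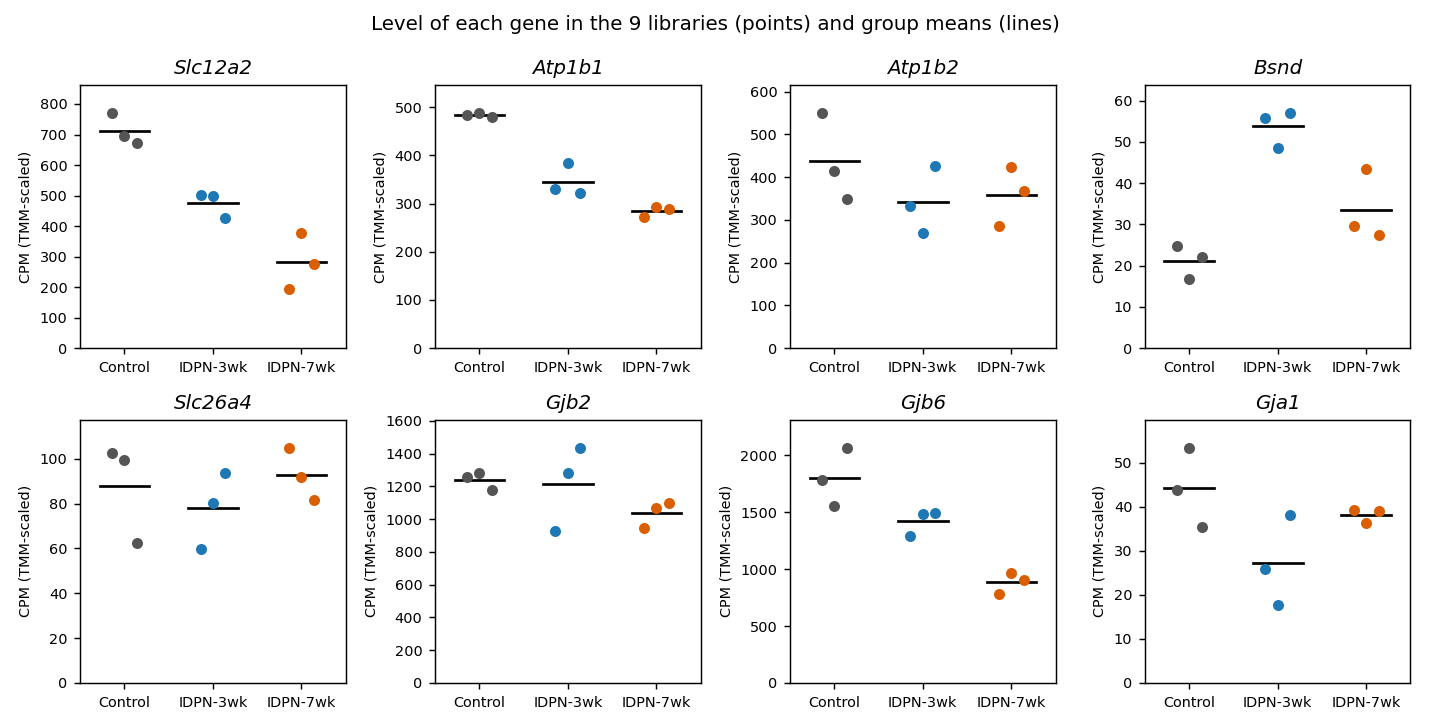
Level of each of the 8 genes in CPM (vertical axes, from 0) in each library (points) of the Control, IDPN-3wk and IDPN-7wk groups, with the group mean as a line. Slc12a2, Atp1b1 and Gjb6 step down from Control to IDPN-3wk to IDPN-7wk with no overlap between groups, Bsnd is highest in IDPN-3wk, and the points of Atp1b2 and Slc26a4 overlap in every pair of groups.

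Slc12a2 (ENSRNOG00000015971) encodes NKCC1, the cotransporter that loads dark cells with potassium. Its level was 770.0, 695 and 672 CPM in Control 1, 2 and 3. It was 500.2, 498 and 426 CPM in the IDPN-3wk rats and 193, 379 and 277 CPM in the IDPN-7wk rats. The 3 groups did not overlap in any pairing, and the lowest Control library was above the highest exposed library. The group means were 712 ± 51.4, 475 ± 41.9 and 283 ± 92.8 CPM (SD, n = 3). After 7 weeks Slc12a2 was 2.52-fold lower than in Control, a log2 fold change of -1.33 (SE 0.20, edgeR adjusted p = 0.00387). After 3 weeks the value was -0.59 (SE 0.20, edgeR adjusted p = 0.181), which did not pass the test. DESeq2 gave an adjusted p of 0.0486 for a change of -0.58, which was under the fold change required of a DEG. Within the libraries with fewer and with more detected genes, the 3-week difference in mean log2(CPM + 2) was -0.43 and -0.78. From 3 to 7 weeks the log2 fold change was -0.75 (SE 0.20, edgeR adjusted p = 0.152), and the DESeq2 adjusted p was 0.00736. Without IDPN-7wk 2, the library with the highest Slc12a2 of its group, the edgeR value from 3 to 7 weeks was -1.01 (adjusted p = 0.037). That change passed in 3 of 19 alternative analyses and did not in the other 16, with values from -1.01 to -0.53 over all 19.

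Atp1b1 (ENSRNOG00000002934) encodes the beta-1 subunit of the Na,K-ATPase, which the catalytic alpha subunit needs to reach the membrane. The 3 Control rats lay close together, at 484, 488 and 481 CPM. The level was 330.0, 383 and 321 CPM after 3 weeks and 273, 293 and 288 CPM after 7 weeks. As with Slc12a2, the 3 groups were fully separate, and the spread within the Control and IDPN-7wk groups was small, with SDs of 3.53 and 10.4 CPM. At 3 weeks the log2 fold change was -0.49 (SE 0.086, edgeR adjusted p = 0.0207), which passed the adjusted p but was 1.40-fold and so under the fold change required of a DEG. It was -0.77 (SE 0.086, edgeR adjusted p = 0.000746) after 7 weeks, a 1.70-fold lower level. From 3 to 7 weeks the change was -0.28 (SE 0.086, edgeR adjusted p = 0.202). The 3-week difference was -0.43 within the libraries with fewer detected genes and -0.59 within those with more.

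Atp1b2 (ENSRNOG00000011227) encodes the beta-2 subunit of the same pump. Its level was 549.9, 414 and 349 CPM in the Control rats. It was 332, 270.3 and 425 CPM after 3 weeks and 286, 423 and 368 CPM after 7 weeks. The groups overlapped in every comparison, and the spread within each group was wider than for Atp1b1. The log2 fold change against Control was -0.35 (95% CI -0.82 to 0.11, edgeR adjusted p = 0.451) after 3 weeks and -0.29 (95% CI -0.75 to 0.18, edgeR adjusted p = 0.529) after 7 weeks, so a fall as large as that of Atp1b1 at 7 weeks was just outside the second interval. Within a library, the log2 ratio of Atp1b1 to Atp1b2 was 0.17 ± 0.33 in Control and -0.32 ± 0.23 after 7 weeks (SD, n = 3), a difference of -0.49 that did not pass a two-sided exact permutation test (p = 0.2).

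Bsnd (ENSRNOG00000006543), which encodes barttin, was the gene of the group that rose. The level was 24.8, 16.7 and 22.0 CPM in Control. It was 55.8, 48.5 and 57.0 CPM after 3 weeks and 29.7, 43.4 and 27.5 CPM after 7 weeks. All exposed rats were above all Control rats, and all 3 IDPN-3wk libraries were above all 3 IDPN-7wk libraries. Bsnd rose 2.54-fold after 3 weeks, a log2 fold change of 1.34 (SE 0.21, edgeR adjusted p = 0.0128). Control 2, the lowest of the 9 libraries, weighed on that call, since without it the change was 1.20 (edgeR adjusted p = 0.0605). The 3-week difference was 1.17 within the libraries with fewer detected genes and 1.40 within those with more, and without those 3 libraries the edgeR value was 1.46 (adjusted p = 0.0744). After 7 weeks the value against Control was 0.66 (SE 0.21, edgeR adjusted p = 0.101), which passed with DESeq2 (adjusted p = 0.0328). From 3 to 7 weeks it was -0.68 (SE 0.21, edgeR adjusted p = 0.2, DESeq2 adjusted p = 0.0489).

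Both NKCC1 and barttin act at the basolateral membrane of dark cells, so Slc12a2 and Bsnd were also compared within each library. Their ratio is one of whole-tissue RNA and not of dark cells alone. The log2 ratio of Slc12a2 to Bsnd was 4.96, 5.38 and 4.93 in the Control libraries. It was 3.16, 3.36 and 2.90 after 3 weeks and 2.70, 3.13 and 3.33 after 7 weeks. Every exposed library was below every Control library, while the IDPN groups overlapped. The mean ratio was lower than in Control by 1.95 log2 units at 3 weeks and by 2.04 at 7 weeks, each with a two-sided exact permutation p = 0.1, the smallest that 3 rats against 3 can give (0.2 after Benjamini-Hochberg adjustment over 12 tests of 4 ratios). The IDPN-7wk and IDPN-3wk means differed by -0.089 (exact permutation p = 0.6).

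Slc26a4 (ENSRNOG00000058692) encodes pendrin, which exchanges chloride for bicarbonate and is found in the transitional cells around the vestibular patches. Pendrin RNA was at 102, 99.2 and 62.4 CPM in Control. It was 59.6, 80.1 and 93.9 CPM after 3 weeks and 105, 91.9 and 81.8 CPM after 7 weeks. The groups overlapped throughout, with Control 3 and IDPN-3wk 1 as the lowest libraries. The log2 fold change was -0.18 (95% CI -0.65 to 0.30) after 3 weeks, 0.077 (95% CI -0.40 to 0.55) after 7 weeks and 0.25 (95% CI -0.22 to 0.73) between the IDPN groups, with edgeR adjusted p of 0.752, 0.904 and 0.656. The sign of each of these values changed under at least 1 alternative analysis, so no direction is given for Slc26a4.

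**Figure D2:**
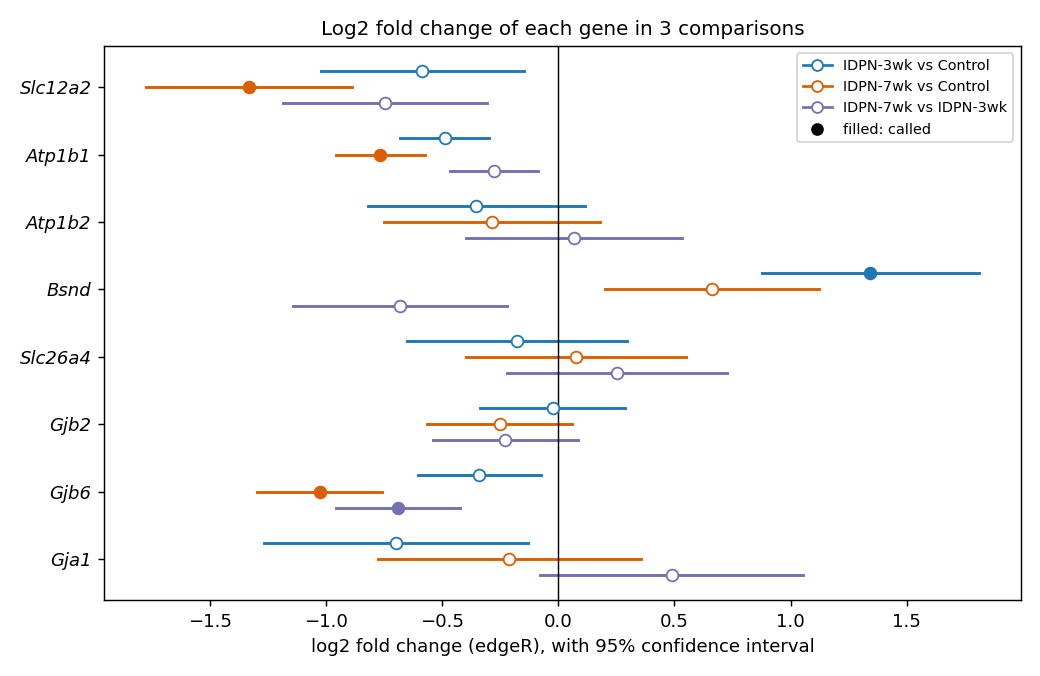
Log2 fold change of each gene (horizontal axis) for each exposed group against Control and for the later against the earlier exposure, with 95% confidence intervals from the edgeR fit and filled points for DEGs. At 7 weeks the intervals of Slc12a2, Atp1b1 and Gjb6 lie below 0, from -1.78 to -0.89, -0.96 to -0.58 and -1.30 to -0.76, whereas that of Bsnd at 3 weeks lies above it, from 0.88 to 1.81.

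Gjb2 and Gjb6 encode connexin 26 and connexin 30, the main connexins of inner ear supporting cells and fibroblasts, which can form mixed channels. Their genes are next to each other among the named protein-coding genes of rat chromosome 15. The 250 bases before the start of each gene are shown because these neighbours are read in the same direction, and Gjb6 fell at 7 weeks while Gjb2 did not pass the test. Both are from the RefSeq promoter table of build GRCr8 and lie on the minus strand, Gjb2 at chr15:35381954-35382203 and Gjb6 at chr15:35410139-35410388, the farther upstream of the 2 Gjb6 starts in that table. They are written 5′ to 3′, and capitals mark each GC box, searched as GGGCGG on both strands.
Gjb2: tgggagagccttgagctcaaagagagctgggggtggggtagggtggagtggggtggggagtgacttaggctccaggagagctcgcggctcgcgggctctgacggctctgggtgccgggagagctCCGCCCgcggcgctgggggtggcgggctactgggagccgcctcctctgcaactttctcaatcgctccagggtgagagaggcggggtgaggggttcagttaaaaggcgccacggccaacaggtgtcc
Gjb6: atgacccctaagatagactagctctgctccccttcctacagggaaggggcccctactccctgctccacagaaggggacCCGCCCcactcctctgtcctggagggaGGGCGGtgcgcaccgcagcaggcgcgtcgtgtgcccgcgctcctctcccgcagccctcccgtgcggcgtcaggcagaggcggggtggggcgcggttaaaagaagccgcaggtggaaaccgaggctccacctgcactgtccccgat
The Gjb2 window held 1 GC box and the Gjb6 window held 2, and 30.5% of the 33469 windows of this length in the table held at least 1. Their GC content was 67.2% and 68%. Neither window held TATAAA (in 12.9% of all windows) or AAGGTCA, the half-site of estrogen-related receptors (in 3.99%), on either strand. Promoter entries were found for 7 of the 8 genes, all but Atp1b1.

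Gjb2 (ENSRNOG00000008855) was at 1255, 1279 and 1177 CPM in Control. It was at 930.1, 1283 and 1435 CPM after 3 weeks and at 948, 1069 and 1098 CPM after 7 weeks. The IDPN-3wk rats lay on both sides of Control, while the IDPN-7wk rats were all below it. The log2 fold change was -0.025 (95% CI -0.34 to 0.29, edgeR adjusted p = 0.962) after 3 weeks and -0.25 (95% CI -0.56 to 0.059, edgeR adjusted p = 0.375) after 7 weeks. From 3 to 7 weeks it was -0.23 (95% CI -0.54 to 0.084, edgeR adjusted p = 0.519). Without IDPN-3wk 1, the lowest of its group, the 3-week value was 0.14 (edgeR adjusted p = 0.549).

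Gjb6 (ENSRNOG00000022116) was at 1783, 1556 and 2066 CPM in the Control rats. It was at 1292, 1485 and 1495 CPM after 3 weeks and at 783, 962 and 905 CPM after 7 weeks. The 3 groups were separate, and the highest IDPN-7wk library was below every other library. Gjb6 was 2.04-fold lower than in Control after 7 weeks, a log2 fold change of -1.03 (SE 0.12, edgeR adjusted p = 0.000979). After 3 weeks the change was -0.34 (SE 0.12, edgeR adjusted p = 0.199), with -0.58 within the libraries with fewer detected genes and -0.16 within those with more. From 3 to 7 weeks Gjb6 fell 1.61-fold, a log2 fold change of -0.69 (SE 0.12, edgeR adjusted p = 0.0426). That last call was lost when Control 1, IDPN-3wk 1, IDPN-3wk 2, IDPN-7wk 1, IDPN-7wk 2 or IDPN-7wk 3 was left out, with adjusted p from 0.0595 to 0.16 and values from -0.75 to -0.61, and it was kept by DESeq2 (adjusted p = 8.97e-06).

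The log2 ratio of Gjb6 to Gjb2 within a library compared the 2 connexins without reference to other genes. It was 0.51, 0.28 and 0.81 in Control. It was 0.47, 0.21 and 0.059 after 3 weeks and -0.28, -0.15 and -0.28 after 7 weeks. All IDPN-7wk libraries were below the other 6 libraries. Gene length was not accounted for, so a ratio of 0 does not mark equal levels of the 2 connexins. The difference from Control was -0.77 at 7 weeks (two-sided exact permutation p = 0.1, the smallest possible, 0.2 after adjustment) and -0.29 at 3 weeks (exact permutation p = 0.2). Other protein-coding genes beside this pair were looked at after their values were seen. Gja3, next to Gjb2, was too low to be tested. Cryl1, a crystallin-like enzyme gene next to Gjb6, was a DEG that rose after 3 weeks by 0.60 log2 units (edgeR adjusted p = 0.0305). After 7 weeks Cryl1 had 0.54 (edgeR adjusted p = 0.0211), under the fold change required. Zmym2 had 0.020 and 0.050 (edgeR adjusted p = 0.963 and 0.885). Ift88, beyond Cryl1, had 0.0065 and 0.016 (edgeR adjusted p = 0.994 and 0.985).

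Gja1 (ENSRNOG00000000805) encodes connexin 43, which is widespread in connective tissue cells and glia. Its level was 43.9, 53.4 and 35.4 CPM in Control. It was 25.9, 17.7 and 38.2 CPM after 3 weeks and 39.2, 36.3 and 39.1 CPM after 7 weeks. IDPN-3wk 3 overlapped with Control, and the IDPN-7wk rats lay within a narrow range. Its log2 fold change was -0.70 (SE 0.26, edgeR adjusted p = 0.219) after 3 weeks, -0.21 (SE 0.25, edgeR adjusted p = 0.741) after 7 weeks and 0.49 (SE 0.26, edgeR adjusted p = 0.442) between the IDPN groups. Without IDPN-3wk 3, the 3-week change was -1.02 and passed the test (edgeR adjusted p = 0.0487), which it did in only 1 of 19 alternatives. Without IDPN-3wk 2 it was -0.47 (edgeR adjusted p = 0.348), and without the 3 libraries with fewer detected genes it was -0.35. The difference was -0.67 within the libraries with fewer detected genes and -0.33 within those with more.

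**Figure D3:**
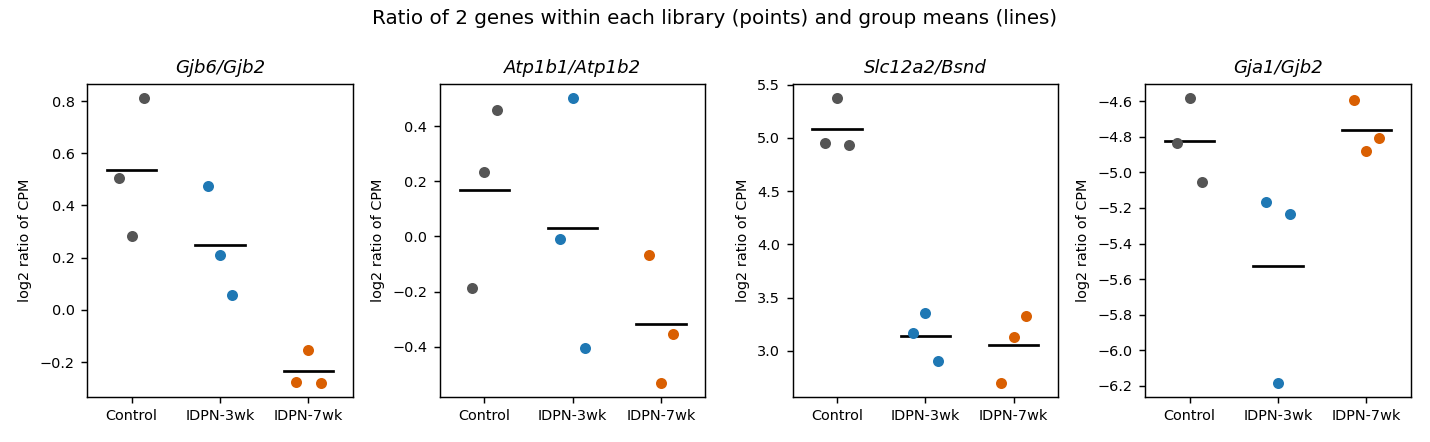
Log2 ratio of the CPM of 2 genes within each library (points, with the group mean as a line) for Gjb6 to Gjb2, Atp1b1 to Atp1b2, Slc12a2 to Bsnd and Gja1 to Gjb2. The IDPN-7wk libraries are below all other libraries for Gjb6 to Gjb2, and for Slc12a2 to Bsnd every exposed library lies at or below 3.36 while every Control library lies at or above 4.93.

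Genes that work with these 8 were read from lists of 118 symbols, of which 116 were in the table and 91 were tested. After 3 weeks, 2 of the 91 were DEGs (1.65% of all tested genes). After 7 weeks, 12 of the 91 were DEGs, 3 higher and 9 lower (5.13% of all tested genes). For IDPN-7wk against IDPN-3wk none of the 91 was a DEG with edgeR, 28 had an unadjusted p under 0.05 (13.8% of all tested genes) and DESeq2 gave 7 DEGs. The median log2 fold change of the 91 genes was -0.091 at 7 weeks, against 0.0097 for all tested genes. As a measure for the lists below, 15.8% of all tested genes at 3 weeks and 19.3% at 7 weeks had an unadjusted p under 0.05.

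Of 9 tested potassium secretion partners, 4 were DEGs that fell after 7 weeks (3.13% of all tested genes), Kcnq1, Kcnj10 and Kcnma1 among them. In that list 0 were DEGs that rose (2% of all), and the median log2 fold change was -0.83. Kcnq1, the pore of the apical potassium channel, was at 97.2, 55.2 and 107 CPM in Control, 72.0, 51.7 and 41.4 CPM after 3 weeks and 27.1, 43.8 and 23.4 CPM after 7 weeks. Every IDPN-7wk rat was below every Control rat. Its log2 fold change was -0.65 (SE 0.31, edgeR adjusted p = 0.338) at 3 weeks and -1.46 (SE 0.31, edgeR adjusted p = 0.0219) at 7 weeks. Kcne1, the accessory subunit of that channel, had -0.81 (SE 0.28, edgeR adjusted p = 0.136) at 7 weeks, and the 3 rats again lay below Control. Kcnj10, an inward rectifier potassium channel also found in melanocytes and satellite glia, changed by -0.98 (SE 0.16, edgeR adjusted p = 0.007), and Kcnma1, the large-conductance calcium-activated channel, by -3.97 (SE 0.84, edgeR adjusted p = 0.0206) from a Control mean of 6.31 CPM.

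Atp1b3, another beta subunit of the Na,K-ATPase, fell by 0.86 log2 units (SE 0.11, edgeR adjusted p = 0.00186) at 7 weeks, from 770.1 ± 42.7 to 425 ± 67.4 CPM (SD, n = 3). Of the 10 other tested genes of the Na,K-ATPase and FXYD list, 2 were DEGs that fell at 7 weeks (3.13% of all tested genes), Atp1b3 among them. At 3 weeks that list had no DEG with edgeR or DESeq2 (2 with an unadjusted p under 0.05).

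**Figure D4:**
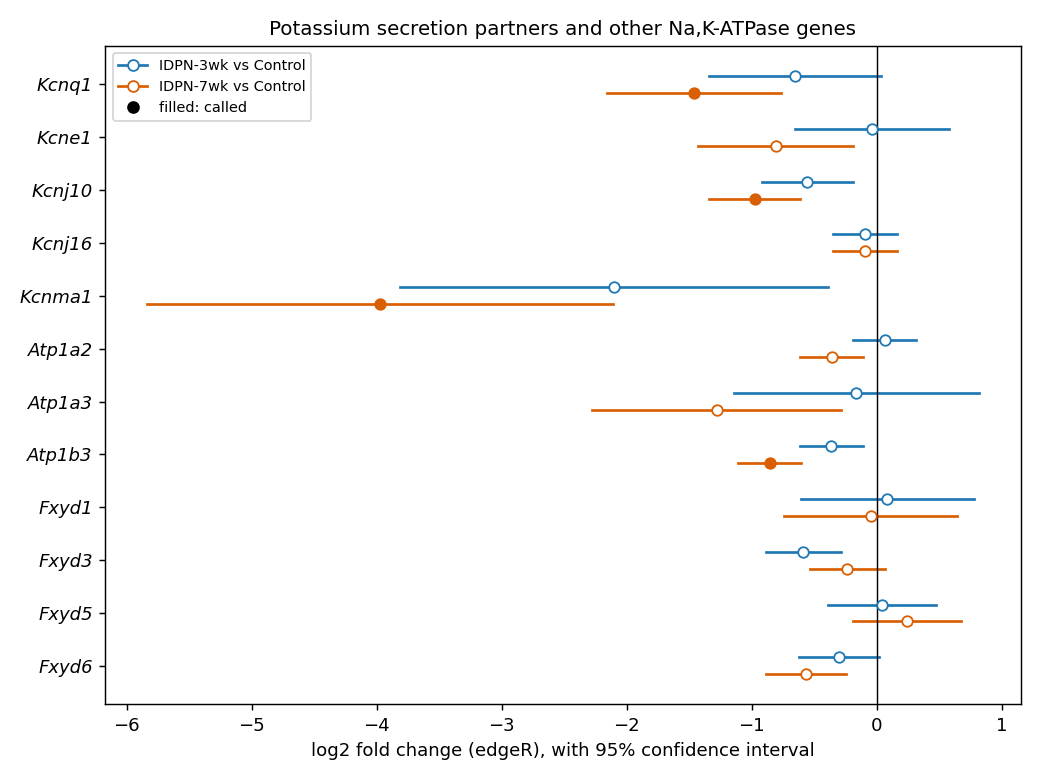
Log2 fold change against Control (horizontal axis, with 95% confidence intervals from the edgeR fit) after 3 and 7 weeks of IDPN for 12 of the tested potassium secretion partners and Na,K-ATPase genes with a mean level above 1 CPM, with filled points for DEGs. Filled points are found at 7 weeks for Kcnq1, Kcnj10, Kcnma1 and Atp1b3, all below 0, and at 3 weeks no point is filled.

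No relative of Slc12a2 or kinase that controls it was a DEG at either time among 12 tested genes of that list, by edgeR or DESeq2 (4 at 3 weeks and 2 at 7 weeks had an unadjusted p under 0.05). Of 25 tested genes of anion exchange and acid-base transport, the list to which pendrin belongs by function, Car12 fell at 3 weeks. DEGs that fell were 1.21% of all tested genes at 3 weeks and 3.13% at 7 weeks, and 2% were DEGs that rose at 7 weeks. At 7 weeks Car12 and Car14, membrane-bound carbonic anhydrases, fell and Slc26a7, a relative of pendrin, rose. Car12 went from 196 ± 4.64 CPM in Control to 104 ± 26.8 and 75.6 ± 12.7 CPM (SD, n = 3), with log2 fold changes of -0.92 and -1.38 (edgeR adjusted p = 0.0321 and 0.00185). In the paper, Car12 is listed as selective for HCs over supporting cells and as lower in every exposure model. The part of HCs in its fall was not tested here. Slc26a7 rose by 1.24 log2 units (SE 0.29, edgeR adjusted p = 0.0342) and Car14 fell by 0.77 (SE 0.18, edgeR adjusted p = 0.0359) at 7 weeks.

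Of 12 tested genes of sodium, calcium and water absorption, 1 was a DEG that rose at 3 weeks and 2 at 7 weeks (0.438% and 2% of all tested genes). In that list 0 were DEGs that fell with edgeR (0 lower at an unadjusted p under 0.05), against 1.21% and 3.13% of all. Aqp1, a water channel of fibroblasts and endothelium, was at 9.87, 7.08 and 8.92 CPM in Control, 13.9, 24.3 and 24.6 CPM after 3 weeks and 55.5, 35.9 and 35.6 CPM after 7 weeks. Each exposed rat was above each Control rat. Its log2 fold change was 1.28 (SE 0.27, edgeR adjusted p = 0.0463) and 2.29 (SE 0.28, edgeR adjusted p = 0.00124). Scnn1a, the alpha subunit of the epithelial sodium channel, rose by 1.80 log2 units (SE 0.44, edgeR adjusted p = 0.0383) after 7 weeks, from a mean of 1.95 to 6.79 CPM.

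Among 10 other tested connexins and pannexins there was no DEG with edgeR at 3 weeks (2 with an unadjusted p under 0.05, and 0 DEGs with DESeq2) or at 7 weeks (2 with an unadjusted p under 0.05, and 1 DEG with DESeq2). Of 5 tested proteins that bind connexins there was no DEG at either time with edgeR, and DESeq2 gave 1 at 3 weeks and 0 at 7 weeks (1 and 2 genes had an unadjusted p under 0.05). Of 9 regulators, 2 were DEGs that fell at 7 weeks (3.13% of all tested genes). Esrrg, a nuclear receptor of the estrogen-related family, fell by 2.15 log2 units (SE 0.44, edgeR adjusted p = 0.017). Hsd11b1, which activates glucocorticoids, fell by 0.70 (SE 0.18, edgeR adjusted p = 0.0446).

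The calls of these partner genes differed in how they stood up to 19 alternative analyses. At 7 weeks, Aqp1 and Car12 remained DEGs in all 19, and Kcnj10 and Atp1b3 in 18, lost only at a fold change above 2. Both 3-week calls were less stable. Aqp1 at 3 weeks was kept in 9 of 19 (edgeR or DESeq2 adjusted p up to 0.173) and was lost without any 1 Control library, IDPN-3wk 2 or 3, or IDPN-7wk 2 or 3. Car12 at 3 weeks was kept in 10 of 19 (adjusted p up to 0.209 over edgeR and DESeq2) and was lost without any 1 Control library, IDPN-3wk 1 or 2, or IDPN-7wk 1. Of the other 7-week calls, Esrrg was kept in 16, Kcnq1 and Kcnma1 in 14, Car14 and Slc26a7 in 13, Scnn1a in 12 and Hsd11b1 in 9 of 19. Each of these 7 calls was lost without Control 1 and without IDPN-7wk 3, and for each of them at least 1 further left-out library ended the call.

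Cell type markers were read beside these values. At 3 and 7 weeks 1.21% and 3.13% of all tested genes were DEGs that fell, and 0.438% and 2% were DEGs that rose. Of 10 supporting cell markers, all 10 were lower at both times, and 1 and 4 were DEGs. Their summed level was 12736 to 12916 CPM in Control, 6972 to 9526 CPM after 3 weeks and 4619 to 7131 CPM after 7 weeks. Otog made up most of these sums, with group means of 8473, 4674 and 3533 CPM. Summed HC markers, of which 3 and 7 of 10 were DEGs that fell, ran from 1861 to 1999, 1037 to 1344 and 989 to 1169 CPM. For dark and transitional cells, the sums were 117 to 181, 111 to 172 and 107 to 137 CPM, and 1 marker, Foxi1, had 0 counts in all 9 libraries. Kcnq1, with group means of 86.6, 55.0 and 31.4 CPM, weighed heavily on these sums, whereas 6 of the 9 tested markers were higher at 3 weeks and 5 of 9 at 7 weeks (median changes of 0.14 and 0.29 on the log2 scale). At 7 weeks the DEGs of that list were Kcnq1, which fell, and Oc90, an otoconial protein gene, which rose by 2.14 log2 units (SE 0.43, edgeR adjusted p = 0.016). Otx1, Otx2 and Kcnj13 were detected in all libraries. Melanocyte sums were 869.7 to 902 CPM in Control, 849 to 927 CPM at 3 weeks and 689 to 745 CPM at 7 weeks, with no DEG among 7 tested markers by edgeR or DESeq2 (4 at 7 weeks and 0 at 3 weeks had an unadjusted p under 0.05).

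Fibroblast sums were 18288 to 18870.3, 19255 to 22753 and 14268 to 15703 CPM, and Schwann cell sums 9562 to 12025, 7697 to 10214 and 3259 to 6841 CPM, in Control, IDPN-3wk and IDPN-7wk. In these lists Lum and Otos, and Mbp and Pmp22, were DEGs that fell at 7 weeks. Coch made up most of the fibroblast sums, with group means of 17233, 19324 and 13953 CPM. Of the 10 fibroblast markers, 5 were lower than in Control at 3 weeks and 8 at 7 weeks. Macrophage sums were 59.2 to 101 CPM in Control, 42.5 to 119 CPM at 3 weeks and 177 to 226 CPM at 7 weeks, where 1 of 8 markers, C1qb, was a DEG. Endothelial sums were 304 to 349.7, 343 to 424 and 269.6 to 426 CPM, with Cdh5 a DEG that rose at 7 weeks. For afferent neurons they were 104 to 119, 67.4 to 77.5 and 62.4 to 78.5 CPM, with Snap25 a DEG that fell at both times, whereas 3 of the 6 neuron markers were higher at 3 weeks (median log2 fold change 0.32) and 1 of 6 at 7 weeks (median -0.13). The 8 genes are not restricted to dark cells, and the part of these markers in their values was not tested.

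**Figure D5:**
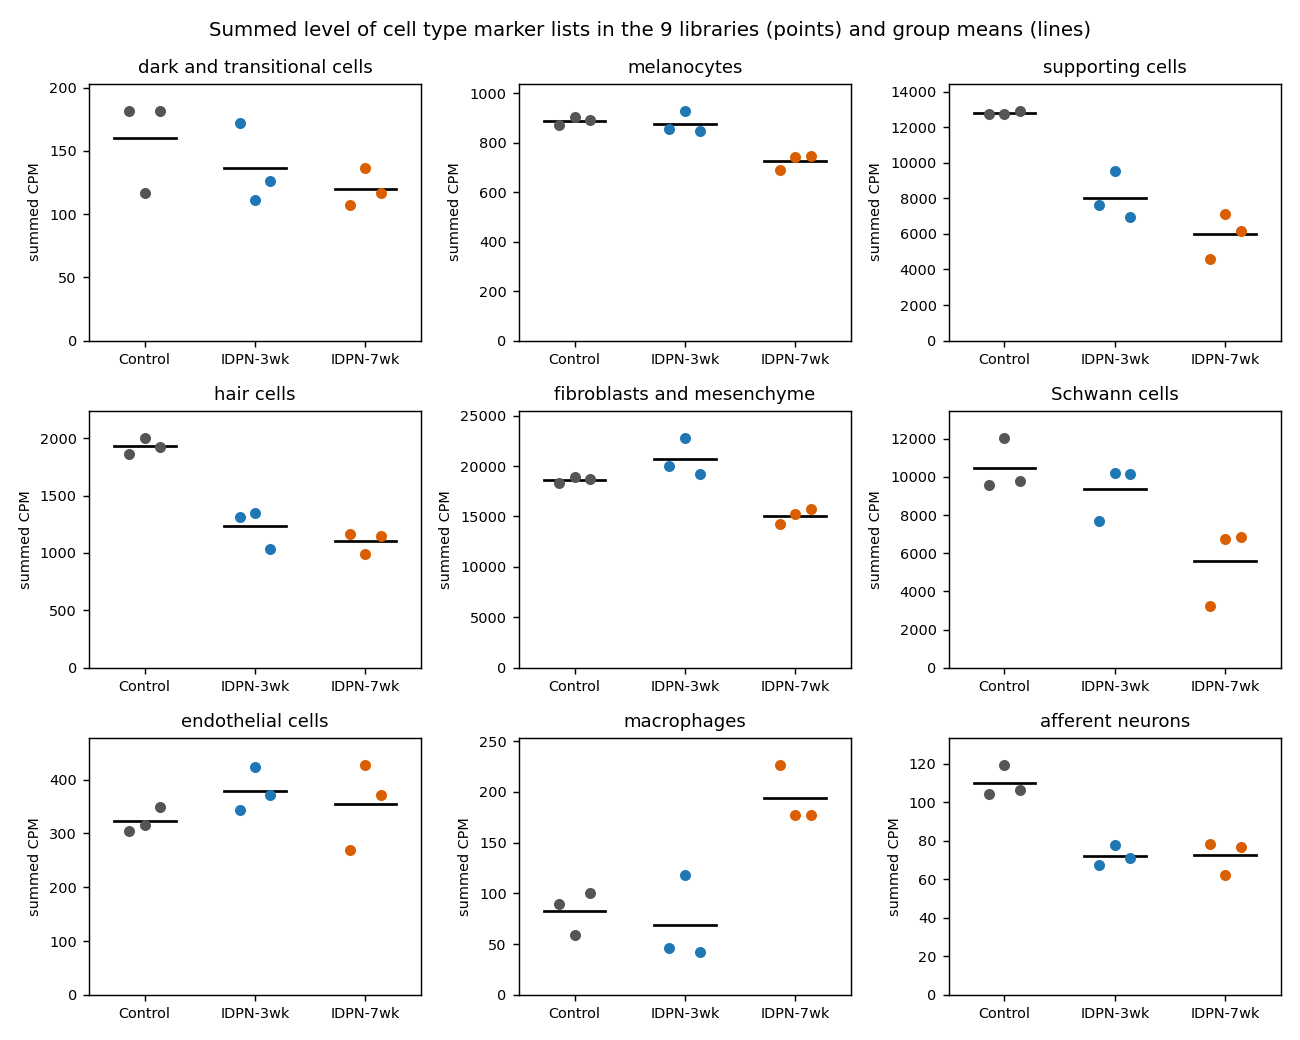
Summed CPM of the markers of 9 cell types (vertical axes, from 0) in each library (points), with the group mean as a line. Supporting cell, hair cell and afferent neuron sums are lower in all exposed libraries than in all Control libraries. Melanocyte, fibroblast and Schwann cell sums are lower in all IDPN-7wk libraries, and macrophage sums are higher in all IDPN-7wk libraries. Otog makes up most of the supporting cell sums and Coch most of the fibroblast sums.

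For each of the 4 genes that was a DEG in some comparison, the genes with the most similar pattern were found, as a description, by the root mean square difference of centred log2(CPM + 2) over the 9 libraries, among 15516 other genes. For Slc12a2 these were Slit3 (0.107), Gpm6a (0.164) and Ndrg1 (0.174). Tmcc2 (0.0634), Fndc7 (0.0747) and Meltf (0.0831) were nearest to Atp1b1. The paper lists Tmcc2 as selective for HCs over supporting cells and as lower in all of its exposure models. The genes nearest to Bsnd were Gpha2 (0.23), Wnt2b (0.231) and Upp1 (0.269), all farther off than those of the other 3 genes. For Gjb6 they were St3gal5 (0.1), Atp1b3 (0.124) and Ptgds (0.135), so the Na,K-ATPase subunit Atp1b3 was the second nearest gene to this connexin.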

How the data were processed

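Vestibular epithelia of 9 rats were sequenced as SMARTseq2 libraries, in which polyadenylated RNA is copied into full-length cDNA and amplified by PCR. Reads were aligned by the authors to rat genome Rnor6.0 (STAR 2.5.3a) and quantified by RSEM 1.3.0, versions per the submitters' processing notes. What they deposited is the RSEM expected count of each gene, in whole numbers and not normalized. RSEM shares ambiguous reads among genes, and the strand used for counting is not given in the sources used here. The table holds 32883 genes, and 4258 entries share a symbol with another, so each of the 8 genes was followed by its Ensembl identifier. Reads carry no molecular identifiers, so counts, and the floor of 3 counts (0.0611 to 0.101 CPM on the TMM-scaled library sizes), cover counting error only. Library totals ran from 31100118 to 46018385 counts.

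Counts were filtered by filterByExpr, scaled by TMM and fitted with edgeR 4.0.16 in R 4.3.3 (robust quasi-likelihood test) in 1 model of 9 libraries with a mean per group, with 6 residual degrees of freedom (prior, median 4.07). Benjamini-Hochberg adjustment ran over 15517 genes in each comparison, and 95% confidence intervals come from the same fit. Both limits of a DEG (0.05 for the adjusted p, 1.5 for the fold change) are those of the paper. DESeq2 1.42.0 was an alternative. The scripts were tested on simulated data. Levels for figures and within-set differences are CPM or log2(CPM + 2). Replicate numbers were given in accession order and pair no animals. All libraries carry 1 batch label. No 2 libraries of a group agreed within sampling noise (lowest chi-square per gene 19.2). p-values measure the spread between these 3 rats per group.

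The 8 genes and the lists were chosen with earlier results of these data known. Named genes were the 8 genes, DEGs of the function lists (at most 12 per comparison), a fixed set of partners (Kcnq1 and Kcne1 among them), and the 3 most similar genes of each member that was a DEG. The genes beside Gjb2 and Gjb6 were added after their values were seen. Listed symbols that matched no row were not analysed here, and some genes of the lists are counted but not reported by name. Gene order and promoters come from RefSeq tables of GRCr8, a build other than that of the counts, and were used for names, neighbours and sequence only. Alternatives were DESeq2, RLE size factors, 2 count filters, a fit of the 2 groups alone, other fold change thresholds, the library set as a covariate and each library left out. DESeq2 with no fold change threshold and a fit without the 3 libraries with fewer detected genes were chosen after seeing the data.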

Additional observations from a re-analysis of the deposited data

Results flagged for a closer look

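The effect of IDPN on Gjb6, connexin 30, differed between the 2 exposure times by the direct test of IDPN-7wk against IDPN-3wk. The log2 fold change between them was -0.69 (SE 0.12, edgeR adjusted p = 0.0426), against Control -0.34 at 3 weeks and -1.03 at 7 weeks, and all 3 IDPN-7wk rats were below all 3 IDPN-3wk rats. Duration of exposure and age at the end of it cannot be told apart here, and the call held in 9 of 19 alternatives.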

How the results depend on the processing

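Of the 8 genes, 3 were DEGs after 7 weeks and 3 remained so whichever library was left out (range 3 to 3). Slc12a2 and Gjb6 were DEGs at 7 weeks under all 19 alternatives, with log2 fold changes from -1.60 to -1.12 and from -1.12 to -0.92, and Atp1b1 under 18, the exception being a fold change above 2. After 3 weeks the number of the 8 called moved from 1 to 2 with no fold change threshold, 3 with DESeq2 and no threshold and 0 without the 3 libraries with fewer detected genes, and ranged from 0 to 2 as single libraries were left out. Between the IDPN groups it moved from 1 to 3 with DESeq2, 4 with DESeq2 and no threshold, and 0 with only the 2 groups in the fit, a fold change above 2, the library set as a covariate or without those 3 libraries, and ranged from 0 to 1 by left-out library.

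The number of function genes called after 3 weeks moved from 2 to 6 with DESeq2, 10 with DESeq2 and no threshold, 0 with the 2 groups alone, and 1 with a fold change above 2, with the covariate and without the 3 libraries, and ranged from 0 to 2 by left-out library. After 7 weeks it moved from 12 to 7 with a fold change above 2, 23 with DESeq2 and no threshold and 21 without the 3 libraries, and ranged from 4 (without IDPN-7wk 3) to 14, with 5 to 7 without Control 1, Control 2, IDPN-7wk 1 or IDPN-7wk 2. Between the IDPN groups it moved from 0 to 7 with DESeq2, 10 with DESeq2 and no threshold and 1 with either other count filter, and ranged from 0 to 4. Calls among all tested genes moved with the setting as well. With DESeq2 and the same thresholds, 4.78% were DEGs at 3 weeks, 8.49% at 7 weeks and 3.4% between the IDPN groups. The edgeR shares were 1.65%, 5.13% and 0.483%. For most other settings the share of all genes is not given here. A change in these counts is therefore not a result about the 8 genes or the function genes. The cause of these shifts was not tested.

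Sign changes touched genes with no call. At 3 weeks Slc26a4 was 0.029 with the covariate, and Gjb2 was 0.045 with it, 0.18 without the 3 libraries and 0.14 without IDPN-3wk 1 (from -0.16 to 0.14 by left-out library). At 7 weeks Slc26a4 was -0.076 with the covariate, -0.12 without the 3 libraries, -0.12 without Control 3 and -0.019 without IDPN-7wk 1 (from -0.12 to 0.20 by left-out library). Between the IDPN groups Atp1b2 was -0.23 with the covariate, -0.25 without the 3 libraries, -0.077 without IDPN-3wk 2 and -0.067 without IDPN-7wk 2 (from -0.077 to 0.25 by left-out library). Slc26a4 was -0.11 and -0.020 under the first pair of settings, and Gja1 was -0.0038 without the 3 libraries. RLE size factors moved the median of all genes by less than 0.1.

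No paired analysis was possible because the labels carry no replicate numbers shared between groups. With 3 rats per group, a value that misses the threshold does not show an unchanged level, and genes near the floor of 3 counts could not be measured closely.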
